A study of Mus musculus with 12 samples.

Results

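Cytotoxic lymphocytes kill and signal with a small set of gene products, and 10 of their genes were followed here through mouse thymus and thymic leukemia. They were Gzma, Gzmb, Gzmk, Prf1, Nkg7, Ccl5, Ifng, Tbx21, Eomes and Klrd1, chosen by symbol as an established cytotoxic and effector set, and all 10 were among the 51734 gene symbols of the deposited files. Of these genes Gzma alone was abundant in tumors 1 to 6, at 10.2 to 120 TPM, a length-corrected share of the library's transcripts, while in none of those tumors did any of the other 9 pass 7.7 TPM and 8 of them stayed under 1.2 TPM. No other gene of the set passed an exact permutation test of correlation with Gzma over these 6 tumors.

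Granzymes are serine proteases that cytotoxic T cells and natural killer (NK) cells store in granules and release onto target cells. Perforin, encoded by Prf1, lets them enter the target cell, and the transcription factors T-bet (Tbx21) and Eomes switch on much of this program as T cells and NK cells mature. Developing thymocytes, the cells from which T cell acute lymphoblastic leukemia (T-ALL) arises, are not known for killing, so the program is usually found in mature effector cells and in NK cells.

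The series holds 12 libraries of polyadenylated thymus RNA from mice of a strain given as F5. Of these, 9 are T-ALL tumors, numbered 1 to 9, of mice with tetracycline-inducible IL-7Rα, the interleukin-7 receptor alpha chain, induced with Dox per their titles, and 3 are control thymuses from healthy animals. The labels used here name no promoter for the transgene, no age and no animal numbers, so the p-values reflect the spread among these libraries alone, which may be technical. No allele or treatment is given for the controls.

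The libraries were of 2 kinds, and the kinds follow the groups in part. In tumors 1 to 6, 31.6% to 69.3% of the estimated counts fell on mitochondrial genes, against 2.55% to 11.1% in tumors 7, 8 and 9 and 0.0949% to 6.73% in the controls. Olfactory and vomeronasal receptor genes, which thymus is not known to use, served as a gauge of background reads. At least 1 count lay on 45.8% to 92.9% of these 1449 genes in tumors 1 to 6, against 98.7% to 99.2% in tumors 7, 8 and 9 and 99.1% to 99.4% in the controls. Totals were 18431516 to 34769946 estimated counts in tumors 1 to 6, 11617724 to 17158731 in tumors 7, 8 and 9 and 8133152 to 12019924 in the controls. The thymocyte markers Thy1 and Cd3g were at 54.4 to 205 TPM and 20.6 to 118 TPM in tumors 1 to 6. They were at 4.98 to 25.8 TPM and 4.68 to 6.52 TPM in tumors 7, 8 and 9, and 11.5 to 26.2 TPM and 4.82 to 39.3 TPM in the controls. Control 1 held the highest Thy1 and Cd3g of the controls. Each comparison of all tumors with the controls is thus also one between library kinds, and values within 1 kind stand beside it below.

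The promoters of the 3 granzyme genes of the set are shown because these genes encode the same kind of enzyme and lay far apart in level. Each run covers 250 bases before and 50 bases after the RefSeq start on GRCm38.p6, written 5′ to 3′ on the gene's own strand. Capitals mark matches, on either strand, to motif letters of 4 factor families of T cells: Runx (TGTGGT), T-box (GGTGTGA), STAT (TTCNNNGAA) and AP-1 (TGANTCA). The Gzma run lies at chr13:113100932-113101231 on the minus strand, the Gzmk run at chr13:113180916-113181215 on the minus strand, and the Gzmb run at chr14:56262285-56262584 on the minus strand.
Gzma: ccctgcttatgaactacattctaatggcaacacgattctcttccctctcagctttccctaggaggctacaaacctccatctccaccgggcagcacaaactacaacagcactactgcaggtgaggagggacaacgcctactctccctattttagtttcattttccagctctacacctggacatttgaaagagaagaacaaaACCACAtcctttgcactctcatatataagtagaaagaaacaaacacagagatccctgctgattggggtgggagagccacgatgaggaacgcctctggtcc
Gzmb: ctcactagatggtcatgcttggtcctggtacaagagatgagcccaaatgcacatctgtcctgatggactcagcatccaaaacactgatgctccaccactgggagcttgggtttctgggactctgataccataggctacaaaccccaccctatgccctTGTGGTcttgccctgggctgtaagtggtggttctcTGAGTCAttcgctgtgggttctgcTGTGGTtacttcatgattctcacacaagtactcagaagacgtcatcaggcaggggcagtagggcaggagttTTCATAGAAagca
Gzmk: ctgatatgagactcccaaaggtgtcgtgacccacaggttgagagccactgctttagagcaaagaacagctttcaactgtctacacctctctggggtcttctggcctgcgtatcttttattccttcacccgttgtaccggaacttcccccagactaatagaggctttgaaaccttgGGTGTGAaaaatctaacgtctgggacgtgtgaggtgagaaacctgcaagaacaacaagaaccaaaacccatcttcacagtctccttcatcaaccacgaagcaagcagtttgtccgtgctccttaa
The Gzma window held 1 Runx match, which began 50 bases before the start, and none of the other 3 motifs. The Gzmb window held 2 Runx matches, 93 and 34 bases before the start, with an AP-1 match 58 bases before it and a STAT match 37 bases after it. The Gzmk window held a T-box match 75 bases before the start and no Runx match. Such letters are common: among 27025 promoter windows of the same length, 16.9% held the Runx letters, 3.96% the T-box letters, 8.47% the STAT letters and 7.93% the AP-1 letters. Among the 5 other genes of the set with a window in the table, Prf1 held a Runx match, Nkg7 a Runx, a T-box and a STAT match, and Ifng a STAT match, while Tbx21 and Eomes held none of the 4. The windows of Ccl5 and Klrd1 were not used here.

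Gzma (ENSMUSG00000023132; GRCm38 chr13:113093825-113100981, minus strand) encodes granzyme A, a tryptase. It had 120, 47.5, 11.2, 27.4, 73.4 and 10.2 TPM in tumors 1, 2, 3, 4, 5 and 6, against 2.45, 1.10 and 3.05 TPM in tumors 7, 8 and 9 and 9.02, 3.01 and 2.02 TPM in controls 1, 2 and 3. Tumors 1 to 6 all lay above every other library, though tumors 3 and 6 lay only just above control 1. The estimated counts behind these levels were 292 to 3948 in tumors 1 to 6, 22 to 56 in tumors 7, 8 and 9, and 108, 25 and 16 in controls 1, 2 and 3. All of them lay on the single annotated transcript, Gzma-201 of 878 bases.

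Among 21884 nuclear protein-coding symbols ranked by TPM within each library, Gzma stood at place 58 in tumor 1, 108 in tumor 2, 751 in tumor 3, 176 in tumor 4, 248 in tumor 5 and 2316 in tumor 6. It stood at places 3373, 12825 and 10506 in tumors 7, 8 and 9, and at 2938, 12513 and 15575 in controls 1, 2 and 3. In tumor 1 it was thus above Thy1, at 120 against 82.5 TPM, and in tumor 6 far below it, at 10.2 against 137 TPM.

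Set against the background gauge, Gzma exceeded at least 99.86% of the receptor genes in each of tumors 1 to 6. In tumors 7, 8 and 9 it exceeded 89.4%, 72.9% and 76.4% of them, and in controls 1, 2 and 3 it exceeded 91.4%, 73.8% and 57.7%. Its TPM was 5.53, 1.93 and 1.90 times the receptor median in tumors 7, 8 and 9, and 6.50, 1.60 and 1.11 times in controls 1, 2 and 3. In those 6 libraries no gene of the set passed the 95th percentile of the receptor genes, so expression of these genes was not distinguishable there from reads on genes that thymus is not known to use. Thy1 and Cd3g also lay under it in controls 2 and 3. Of 12 thymocyte identity genes, 7 passed it in none of tumors 7 to 9 and 9 in none of the controls. The gauge therefore cannot show that a gene is off in those libraries. The 95th percentile itself lay at 0.449 to 1.16 TPM in tumors 1 to 6, 5.23 to 15.8 TPM in tumors 7 to 9 and 14.3 to 18.1 TPM in the controls. Passing it in one library and not in another is thus no comparison of levels.

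**Figure D1:**
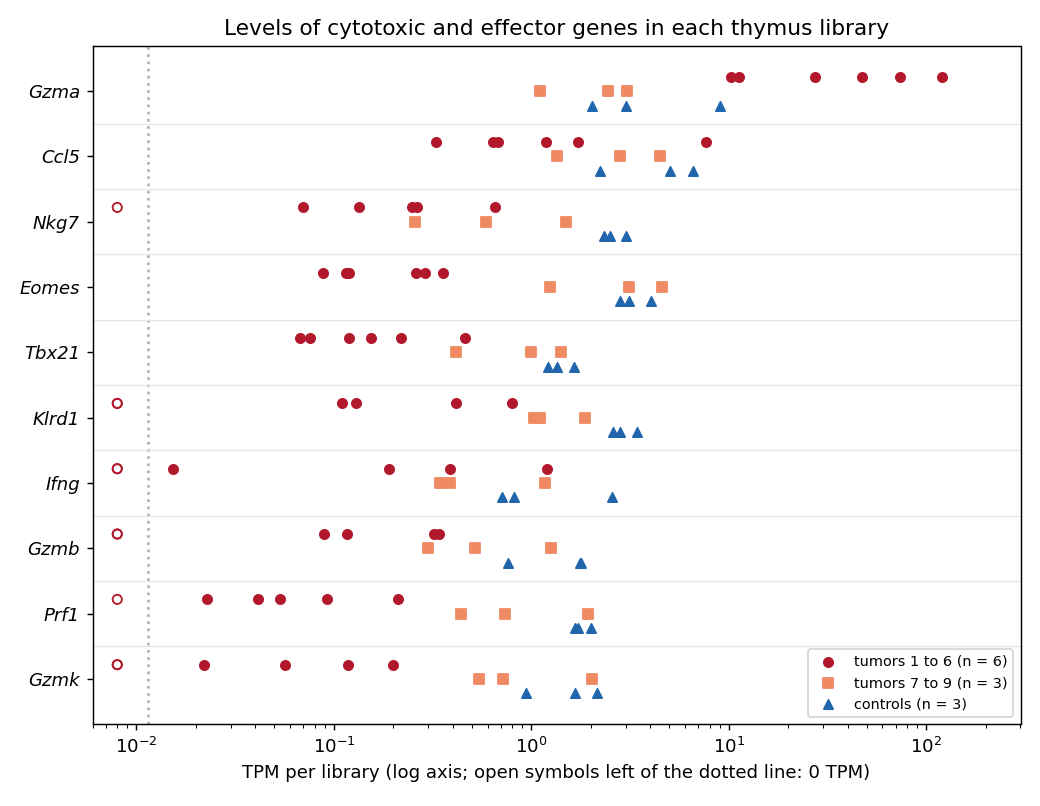
Level of each effector gene (rows, ordered by median over tumors 1 to 6) in TPM on a log axis, 1 symbol a library: circles for tumors 1 to 6, squares for tumors 7 to 9, triangles for controls, open circles for 0 TPM. Gzma in tumors 1 to 6 spans 10.2 to 120 TPM, right of all its other libraries, while 7 of the other 9 genes lie wholly lower in tumors 1 to 6 than in the controls, as 70.5% of coding genes do on this scale and none of the 10 do on TMM CPM.

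The order of the levels is a description, since Gzma was singled out with its values known. By median TPM over tumors 1 to 6 it ran from Gzma at 37.4 through Ccl5 at 0.933, Nkg7 at 0.192, Eomes at 0.189, Tbx21 at 0.136, Klrd1 at 0.120, Ifng at 0.103, Gzmb at 0.103 and Prf1 at 0.0474 to Gzmk at 0.0392. The range of Gzma did not overlap that of Ccl5. Every other pair of neighbours in this order overlapped. Gzma made up 97.5%, 93.4%, 89.8%, 71.1%, 99.1% and 88.6% of the summed TPM of the set in tumors 1 to 6, against 29.1%, 9.18% and 13.1% in tumors 7, 8 and 9 and 34.8%, 12.3% and 7.52% in controls 1 to 3. The next highest gene was Ccl5 in each of tumors 1 to 6, and Gzma exceeded it 69.4, 40.1, 16.5, 3.56, 224 and 15.97 times in tumors 1 to 6.

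Granzyme B and granzyme K, the other granzymes of the set, were near the limit of detection in the same tumors. On GRCm38 Gzmb lies at chr14:56258838-56262260 on the minus strand. Gzmb, which encodes the caspase-activating granzyme, had 0, 21, 7, 23, 11 and 0 counts in tumors 1 to 6, 12, 18 and 25 counts in tumors 7, 8 and 9, and 16, 26 and 25 counts in the controls. Gzmk had 6, 2, 0, 12, 0 and 1 counts in tumors 1 to 6, 17, 16 and 32 counts in tumors 7, 8 and 9, and 17, 20 and 23 counts in the controls. A library with 0 counts still allows 3 counts, which is 0.0863 CPM, the count scaled to library size, in tumor 5 and 0.163 CPM in tumor 6. Both genes lay under 0.35 TPM in each of tumors 1 to 6, and Gzma lay above 10 TPM in the same 6 libraries.

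Prf1 lies at chr10:61297833-61304680 on the plus strand and Nkg7 at chr7:43437073-43438249 on the plus strand. Prf1, the pore former, had 8, 6, 3, 28, 0 and 3 counts in tumors 1 to 6, 29, 43 and 61 counts in tumors 7, 8 and 9, and 63, 43 and 48 counts in the controls. Its TPM was 0 to 0.212 in tumors 1 to 6, with the highest value in tumor 4, 0.443 to 1.95 in tumors 7, 8 and 9 and 1.67 to 2.02 in the controls. Tumors 1 to 6 all lay below the controls in Prf1 TPM, as for 70.5% of coding genes. On TMM CPM tumor 4, at 3.81, lay above the controls at 2.085, 1.562 and 1.939. Nkg7, a granule membrane protein needed for granule release, had 6, 5, 3, 15, 0 and 1 counts in tumors 1 to 6, 5, 8 and 15 counts in tumors 7, 8 and 9, and 28, 16 and 15 counts in the controls. Of the 30 Nkg7 counts pooled over tumors 1 to 6, 61.5% (95% Wilson interval 42.3% to 75.4%) lay on the retained-intron transcript Nkg7-202, against 21.9% (10.2% to 39.5%) of 28 counts in tumors 7, 8 and 9 and 17.9% (10.7% to 30.4%) of 59 counts in the controls. Tumor 4 gave 15 of the 30 Nkg7 counts of tumors 1 to 6, and without it the share was 49.3% (24.8% to 69.9%) of 15 counts. Intervals and limits of this kind cover counting error only.

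Ccl5, a chemokine that effector T cells and NK cells secrete, lies at chr11:83525778-83530518 on the minus strand and was the only other gene of the set past the receptor 95th percentile in more than 1 tumor. It had 1.73, 1.19, 0.681, 7.70, 0.328 and 0.641 TPM in tumors 1 to 6, against 1.35, 2.80 and 4.49 TPM in tumors 7, 8 and 9 and 2.22, 5.05 and 6.58 TPM in the controls. Tumor 4 lay highest of all libraries and tumor 5 lowest. Ccl5 exceeded the 95th percentile of the receptor genes in 4 of tumors 1 to 6 and in none of the other libraries. That cutoff was far lower in tumors 1 to 6, so tumor 3 passed it at 0.681 TPM and control 3 did not at 6.58 TPM. The transcript that took the counts also differed. In tumors 1 to 6 the coding transcript Ccl5-201 took 91.3% (87.2% to 94.3%) of 244 counts, against 18.8% (11.9% to 27.6%) of 92 counts in tumors 7, 8 and 9 and 28.6% (19.7% to 39.5%) of 76.6 counts in the controls. The rest of the counts lay on the retained-intron transcript Ccl5-202. Tumor 4 gave 156 of the 244 counts, and without it the share of Ccl5-201 in tumors 1 to 6 was 77.1% (67.5% to 84.8%) of 88 counts. These shares pool libraries, and no test between groups was run on them.

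Ifng lies at chr10:118441046-118445892 on the plus strand and Klrd1 at chr6:129591782-129598775 on the plus strand. Ifng, a main effector cytokine, had 18, 6, 1, 25, 0 and 0 counts in tumors 1 to 6, 13, 10 and 19 counts in tumors 7, 8 and 9, and 12, 10 and 25 counts in the controls. In tumor 4 it exceeded 98.4% of the receptor genes. The receptor subunit Klrd1 (CD94), an NK and effector T cell surface protein, had 3, 24, 4, 17, 0 and 0 counts in tumors 1 to 6, 17, 16 and 15 counts in tumors 7, 8 and 9, and 25, 19 and 17 counts in the controls. Tumors 2 and 4 held most of the Klrd1 counts of tumors 1 to 6.

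The transcription factors of the program were scarce per length in tumors 1 to 6. Tbx21 lies at chr11:97098071-97115331 on the minus strand and Eomes at chr9:118478212-118486132 on the plus strand. Tbx21 had 16, 25, 11, 9, 21 and 43 counts in tumors 1 to 6, 31, 64 and 52 counts in tumors 7, 8 and 9, and 64, 33 and 35 counts in the controls. Its highest TPM of tumors 1 to 6, 0.461, was in tumor 6, where Gzma was lowest. On TMM CPM tumor 2 was instead highest for Tbx21, at 3.25 against 2.74 in tumor 6. Eomes had 34, 31, 21, 57, 20 and 8 counts in tumors 1 to 6, 109, 229 and 189 counts in tumors 7, 8 and 9, and 181, 89 and 90 counts in the controls. Per length, Eomes was at 0.0879 to 0.358 TPM in tumors 1 to 6, 1.25 to 4.58 TPM in tumors 7, 8 and 9 and 2.82 to 4.04 TPM in the controls. On TPM, where 70.5% of coding genes lay wholly below the controls, tumors 1 to 6 lay below all other libraries for Eomes, but on TMM CPM tumor 4, at 7.77, lay above the controls at 5.99, 3.23 and 3.63.

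Several of the genes peaked in the same tumor, and it was not the tumor with the most Gzma. Tumor 4 held the highest TPM of tumors 1 to 6 for 6 of the 9 other genes, namely Gzmk, Prf1, Nkg7, Ccl5, Ifng and Eomes. Tumor 2 was highest for Gzmb and Klrd1, tumor 6 for Tbx21 and tumor 1 for Gzma. On TMM CPM tumor 4 was highest for Gzmb, at 3.13, and tumor 2 for Tbx21, at 3.25. Tumor 5, whose Gzma was the second highest in TPM, had 0 counts for 5 of the 9 other genes, and tumor 6 had 0 counts for 3 of them. The number of genes of the set past the 95th percentile of the receptor genes was 2, 2, 2, 4, 1 and 1 in tumors 1 to 6, with Gzma among them each time.

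**Figure D2:**
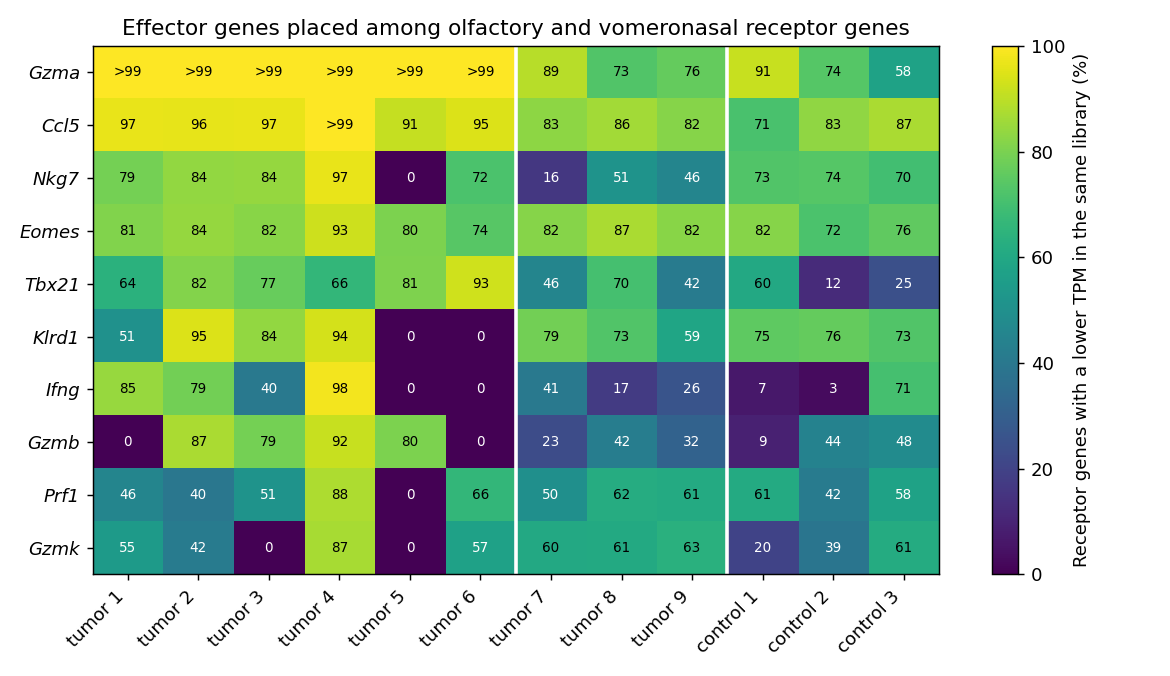
Percentage of the 1449 olfactory and vomeronasal receptor genes with a lower TPM than each effector gene (rows) in each library (columns, tumors 1 to 9, then controls 1 to 3). White lines part tumors 1 to 6, tumors 7 to 9 and the controls. The Gzma cells of tumors 1 to 6 are above 99%, those of tumors 7 to 9 lie at 72.9% to 89.4% and those of the controls at 57.7% to 91.4%; a cell of 0 in tumors 1 to 6 is a gene with no count.

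Whether Gzma and the other genes varied together was asked over tumors 1 to 6 alone, which are of 1 library kind. The scale was log2 CPM with edgeR's TMM scaling factors and a pseudocount of 1. These factors are meant to offset differences in library composition, and whether they did so here was not tested. They ran from 0.283 in tumor 4 to 0.853 in tumor 6, and from 2.51 to 3.16 in the controls, and a lower factor gives a higher CPM. None of the 9 genes was correlated with Gzma by a two-sided exact permutation test adjusted over the 9 (0 also at an unadjusted p below 0.05, and 0 in every alternative run). Pearson r was positive for 8 of 9, with a median of 0.391. The median was 0.0747 on log2(TPM + 1), again with 8 positive, and 0.0620 on library totals, with 6 positive. The highest was that of Ifng, with r = 0.602 (exact permutation p = 0.200, adjusted p = 0.636, n = 6) and Spearman rho = 0.464 (exact permutation p = 0.372, adjusted p = 0.743). The lowest was that of Tbx21, with r = -0.22 (exact permutation p = 0.686, adjusted p = 0.686, n = 6) and rho = 0.0857 (exact permutation p = 0.919, adjusted p = 1.0). Without tumors 6 and 1, the tumors farthest from the median of Gzma, r was 0.338 for Ifng and 0.405 for Tbx21, and without tumor 6 alone r was 0.348 for Tbx21, so that its direction rests on tumor 6. The smallest p that 6 tumors allow is 0.00278.

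**Figure D3:**
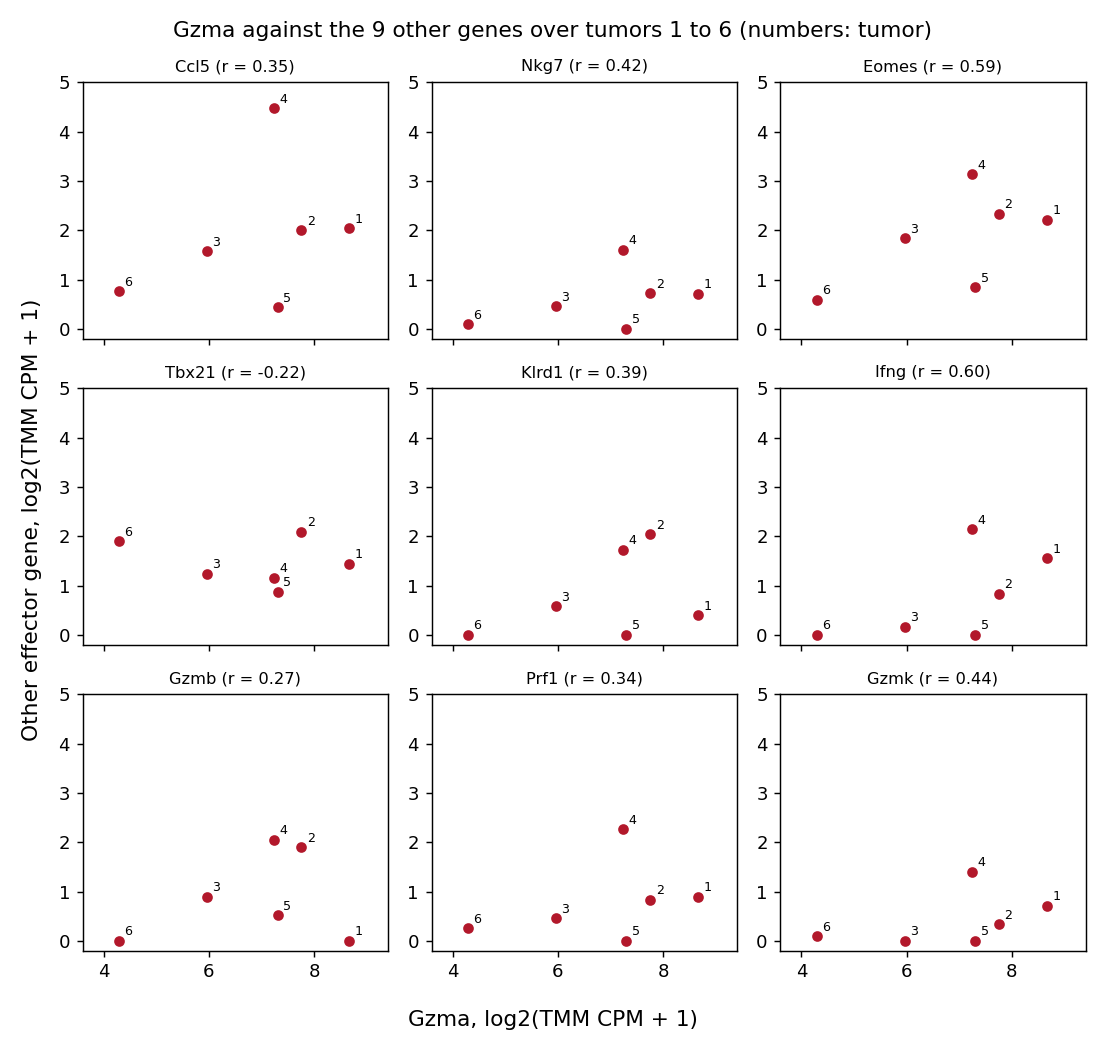
Each panel sets 1 effector gene (y axis) against Gzma (x axis) over tumors 1 to 6, both as log2(TMM CPM + 1), with the tumor number beside each point and Pearson r in the title. Tumor 4 stands at the top of the Ccl5, Nkg7, Prf1, Gzmk, Ifng and Eomes panels and tumor 5 lies at or near the bottom of most, although its Gzma is close to that of tumor 4.

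Genes with a pattern like that of Gzma over tumors 1 to 6 were sought above a floor of 5 TMM CPM in the mean. Of the other genes of the set only Ccl5, at 5.06, met that floor, and the rest had means of 0.434 to 3.22. That the closest genes came from outside the set was thus largely fixed by the floor. Among 9515 protein-coding genes with a mean of at least 5 TMM CPM, 57 had an r with Gzma above 0.9, and the highest were Gm21750 (0.992), Maf (0.979), Snapc5 (0.978), Zfp65 (0.972) and Arpc2 (0.970). These values rest on 6 libraries that also differ in depth and composition, and carry no test. Only Arpc2, a subunit of the actin-nucleating Arp2/3 complex, was above its control levels in each of these tumors, at 9.50 to 30.1 TPM in tumors 1 to 6, 2.37 to 4.59 TPM in tumors 7, 8 and 9 and 5.42 to 6.94 TPM in the controls. Maf, a transcription factor of T helper and γδ T cells, lay at only 0.0849 to 0.488 TPM in tumors 1 to 6, 0.987 to 3.62 TPM in tumors 7, 8 and 9 and 2.79 to 3.21 TPM in the controls.

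The other genes around Gzma did not share its level. Within 500 kb of its start lie 11 other protein-coding genes, and in tumors 1 to 6 the highest of their medians was 0.821 TPM, for Dhx29. Cdc20b, whose end lies 2.6 kb from Gzma, was at 0.0565 to 1.06 TPM in tumors 1 to 6, 1.65 to 5.76 TPM in tumors 7, 8 and 9 and 5.19 to 7.45 TPM in the controls. Gzmk, 70.6 kb away at chr13:113171608-113225908, was at 0 to 0.200 TPM in tumors 1 to 6, 0.542 to 2.02 TPM in tumors 7, 8 and 9 and 0.941 to 2.15 TPM in the controls. The highest single value of a neighbour in tumors 1 to 6 was 3.11 TPM, for Gpx8.

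**Figure D4:**
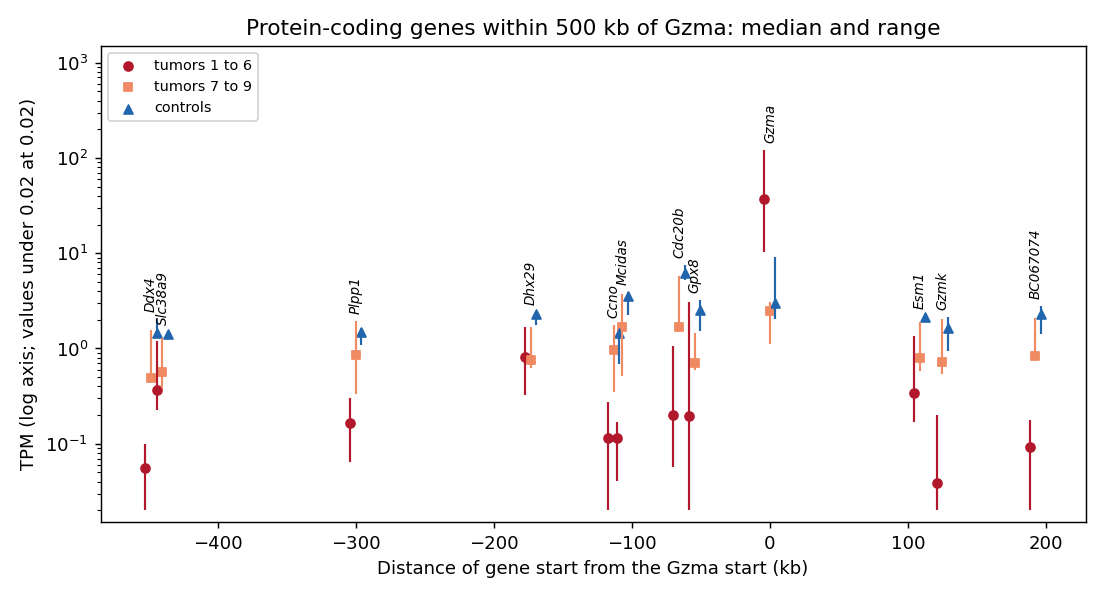
Median (symbols) and range (lines) of TPM on a log axis for the 12 protein-coding genes that start within 500 kb of the Gzma start, against the distance in kb, for tumors 1 to 6, tumors 7 to 9 and controls. Gzma at distance 0 spans 10.2 to 120 TPM in tumors 1 to 6, and each neighbour has a tumor 1 to 6 median of 0.821 TPM or less.

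The comparison the series states, all 9 tumors against the 3 controls, called none of the 10 genes higher or lower with edgeR's quasi-likelihood test at a Benjamini-Hochberg adjusted p below 0.05 over 40484 genes. Only 0.00494% of all tested genes, 2 of them, were called. Gzma had the largest log2 fold change of the set, 6.03 (SE 1.91, n = 9 and 3), with an edgeR p of 0.00567 and an adjusted p of 0.128, and was the only one of the 10 with an unadjusted p below 0.05. With library composition as a term the Gzma log2 fold change was 0.03 (edgeR adjusted p = 1.0), with library totals in place of TMM factors 3.38 (edgeR adjusted p = 0.232), and with limma on log2(TPM + 1) 1.64 (limma adjusted p = 0.101). Ccl5 followed with 1.96 (SE 1.07, edgeR adjusted p = 0.394). The fold changes of the other 8 ran from -0.54 to 0.56, and the median of the 10 was 0.29, against -0.45 over all genes tested. DESeq2 called 1 of the 10, Gzma, with a log2 fold change of 5.55 and an adjusted p of 2.50e-04, where 10.1% of all genes were called higher. limma on log2(TPM + 1) called 8 lower, all but Gzma and Ccl5, where 79.3% of all genes were called lower, and an edgeR fit with the labels' numbers as a block called Gzma and Ccl5 higher, where 20.7% of all genes were.

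Gzma was called by edgeR once tumors 7 to 9, the tumors of the controls' library kind, were left out. The fit without them gave it a log2 fold change of 6.31 (SE 1.02, n = 6 and 3, adjusted p = 3.22e-04), the only call among the 10, where 19.6% of all genes were called higher and 20.3% lower. Without tumors 7 to 9 and control 1, whose Gzma, Thy1 and Cd3g were the highest of the controls, the log2 fold change was 7.37 (edgeR adjusted p = 9.92e-04), the only call among the 10, with 15.9% of all genes called higher. Of 12 thymocyte identity genes, 9 were called higher without tumors 7 to 9, among them Thy1 with 5.27 and Tcf7 with 6.17, so a rise of this size was not particular to Gzma, and library kind and tumor state cannot be told apart there. In bulk tissue more cells with Gzma and more Gzma RNA per cell cannot be told apart either.

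Within 1 library kind, tumors 7 to 9 against the controls, edgeR called none of the 10 genes, with 0.0494% of 36420 genes called, and DESeq2 and limma called none of them. The Gzma log2 fold change was 0.00 (SE 0.69, n = 3 and 3, edgeR adjusted p = 0.999), and without control 1 it was 1.12. An unadjusted p below 0.05 was found for 2 genes. The Nkg7 log2 fold change was -0.88 (SE 0.39, edgeR adjusted p = 0.547). That of Eomes was 0.78 (SE 0.27, edgeR adjusted p = 0.443). In both groups all 10 genes lay within the range of the receptor genes, and the part of background reads in these fold changes was not tested.

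**Figure D5:**
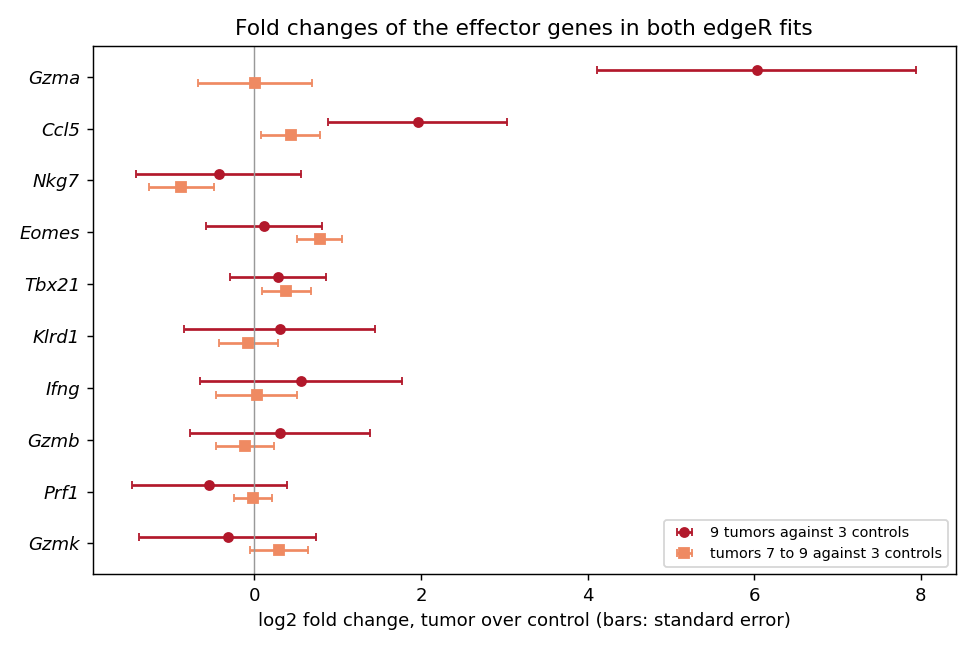
Log2 fold change of each effector gene, tumor over control, from edgeR, with bars of 1 standard error: circles for all 9 tumors against 3 controls, squares for tumors 7 to 9 against the same controls. Gzma stands at 6.03 in the first fit and 0.00 in the second, and no gene of the set passes the adjusted threshold in either.

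Scaling mattered for the low genes and not for the direction of Gzma between tumors 1 to 6 and the controls. On TPM, tumors 1 to 6 all lay above the controls for 1 of the 10 genes, Gzma, as for 1.79% of 21777 coding genes, and all below the controls for 7, namely Gzmb, Gzmk, Prf1, Nkg7, Tbx21, Eomes and Klrd1, as for 70.5% of coding genes. On TMM CPM, Gzma was again the only gene above all controls, as were 33.6% of coding genes, and none of the 10 lay below them all, against 22.0% of coding genes. The lower TPM of the 7 genes is therefore near the background share and depends on the scale.

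Other parts of the killing machinery were read from fixed lists, and no gene of any list was called in the edgeR fits of all 9 tumors or of tumors 7 to 9. Of 13 other granzymes and granule contents, 3 passed the 95th percentile of the receptor genes in each of tumors 1 to 6: Srgn, the proteoglycan that packs granules, at 3.46 to 9.52 TPM, Ctsc, the protease that activates granzymes, at 1.39 to 4.34 TPM, and Lamp1, a lysosome membrane protein, at 1.99 to 9.29 TPM. In the controls Srgn, Ctsc and Lamp1 were at 6.93 to 14.7, 3.72 to 6.92 and 3.09 to 4.87 TPM, which overlapped tumors 1 to 6. Without tumors 7 to 9, edgeR on TMM-scaled counts called those 3 higher, with log2 fold changes of 2.16, 1.98 and 3.64, and called 1 of the 13, Gzmn, lower, beside 19.6% of all genes higher and 20.3% lower in that fit, so these counts are near or under the background. The granzymes Gzmc, Gzmd, Gzme, Gzmg and Gzmm had 0 to 10 counts in each of tumors 1 to 6, and Gzmf had 0 to 12.

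Of 9 measured genes of granule release, edgeR called 5 higher and 1 lower without tumors 7 to 9, where 19.6% of all genes were called higher and 20.3% lower. Those higher were Rab27a, Unc13d, Stxbp2, Lyst and Ap3b1, which dock, prime or form lysosome-related granules, with log2 fold changes of 2.39, 1.36, 2.98, 4.54 and 3.91, and the lower one was Cadps2 with -2.17. On TPM Rab27a and Unc13d instead lay wholly below the controls in tumors 1 to 6, as 70.5% of coding genes did. Unc13d was at 3.93 to 12.4 TPM there, against 30.1 to 33.2 TPM in the controls. Stxbp2, Lyst and Ap3b1 overlapped the controls on TPM. Lyst had the widest range of TPM. It was at 51.0 and 52.0 TPM in tumors 5 and 6 against 3.37 to 6.32 TPM in tumors 1 to 4. Of 4 granzyme inhibitors 1 was called higher in that fit, Serpinb6a, with 1.22, though on TPM it overlapped the controls. These genes also serve lysosomes of cells that do not kill, and the median log2 fold change over all genes in that fit was -1.29.

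The signals around the program were mixed. None of 8 effector cytokines and chemokines was called in any of these edgeR fits, and Tnf, which had the highest mean CPM of them over tumors 1 to 6, was at 0.0864 to 0.609 TPM in tumors 1 to 6, 0.440 to 1.45 TPM in tumors 7, 8 and 9 and 1.52 to 2.14 TPM in the controls. Of 8 receptors and targets of Ifng and Ccl5, edgeR called 3 higher without tumors 7 to 9, among them Ifngr1 with 2.84 and Irf1 with 3.32. Of 15 transcription regulators of effector cells 3 were called higher there, Id2 with 2.49, Tox with 3.34 and Bcl6 with 1.14. On TPM Bcl6 instead lay wholly below the controls in tumors 1 to 6, at 0.423 to 1.16 against 2.60 to 3.17, and Id2 and Tox overlapped them. Of 9 cytokine receptors of effector cells 2 were called higher, Il2rg, the common gamma chain, with 4.87, and Il12rb2 with 3.23. These counts stand beside 19.6% of all genes called higher in that fit, a share close to that of the regulators and of the cytokine receptors.

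Markers of cells that could bring Gzma RNA into the tissue were counted in the same libraries. Of 17 measured NK cell markers, summed to 3.66 to 13.1 TPM in tumors 1 to 6, 13.9 to 43.5 TPM in tumors 7, 8 and 9 and 49.3 to 57.9 TPM in the controls, 11 passed the receptor 95th percentile in none of tumors 1 to 6 and only Tyrobp, an adaptor also used by macrophages, passed it in all 6. On TPM 70.5% of coding genes lay wholly below the controls in tumors 1 to 6, so the lower sum there is not particular to these markers. The defining NK genes Ncr1 and Klrb1c had 0 to 25 and 0 to 26 counts in tumors 1 to 6. In mean TMM CPM, Ncr1 was at 1.10 in tumors 1 to 6 and 0.975 in the controls, and Klrb1c at 1.21 and 2.56. In tumor 1, with 3778 Gzma counts, Ncr1 had 3 and Klrb1c 14, and in tumor 5, with 3948 Gzma counts, Ncr1 had 23 and Klrb1c 0. In edgeR without tumors 7 to 9, 3 of the 17 were called higher (Tyrobp 2.98, Fcer1g 2.30, Cd160 1.30) and 2 lower (Klre1 -1.58, Klri2 -2.27), beside 19.6% of all genes higher and 20.3% lower, so neither count is above the background. On TPM Cd160 lay wholly below the controls in tumors 1 to 6, and Tyrobp and Fcer1g overlapped them.

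Of 8 innate-like and γδ T cell markers, summed to 2.70 to 28.3 TPM in tumors 1 to 6, 4.53 to 23.0 TPM in tumors 7, 8 and 9 and 21.1 to 24.3 TPM in the controls, none passed the receptor 95th percentile in all of tumors 1 to 6, and edgeR called 2 higher without tumors 7 to 9, among them Trdc (3.83), beside 19.6% of all genes. Of 10 mature CD8 T cell markers, summed to 11.6 to 40.6 TPM, 9.72 to 29.0 TPM and 29.9 to 33.4 TPM in tumors 1 to 6, tumors 7 to 9 and controls, Cd8a and Cd8b1 passed it in all 6 and were called higher in that fit (2.41 and 3.16). Macrophage markers summed to 3.13 to 20.7 TPM, 3.83 to 14.5 TPM and 16.5 to 17.8 TPM in the same order, with Lyz2 (5.17) and Cd68 (2.29) of 8 called higher, and mast cell and basophil markers to 0.202 to 5.91 TPM, 5.62 to 18.7 TPM and 16.6 to 22.4 TPM, with 0 of 6 called. On TPM, Trdc, Cd8a, Cd8b1, Lyz2 and Cd68 each overlapped the controls in tumors 1 to 6. The part of any of these cells in the Gzma level was not tested.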

How the data were processed

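RNA was measured in 12 mouse thymus libraries as paired reads of 75 bases, per the labels. Per the file headers the authors deposited estimated counts for each of 128622 transcripts. Per the file headers they also deposited TPM values, which share 1 sum across libraries, mitochondrial transcripts included. Per the submitters' processing notes, kallisto, FastQC and build mm10 were used. For versions and the annotation release nothing was given in the sources used here.

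Estimated counts and TPM were summed by gene symbol, and counts were rounded to whole numbers. The edgeR 4.0.16 quasi-likelihood test used TMM factors and filterByExpr by group on all genes, with Benjamini-Hochberg adjusted p below 0.05 called. DESeq2 1.42.0 and limma 3.58.1 on log2(TPM + 1) were alternatives, with other scalings, filters and left-out libraries. Transcript shares without tumor 4 were added after seeing the data. Fits were tested on simulated data. Correlations used exact permutation tests. Gene positions came from GENCODE annotation of GRCm38 and promoter sequences from RefSeq on GRCm38.p6, which gave windows for 8 of the 10 genes. A count of 3 stood for 0.0863 to 0.369 CPM.

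The genes and lists were chosen with earlier results of these data known. By rule, the text named the 10 genes, at most 3 abundant genes per list and the 5 genes most like Gzma. Other list genes named were chosen after their values were seen. Results of some list genes are not reported here. The listed symbols Vamp7 and Cd244a were not among the symbols of the files and were not analysed here. Tumors 1 to 6 and tumors 7 to 9 were parted by library composition, not by the level of any gene of the set.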

Additional observations from a re-analysis of the deposited data

Results flagged for a closer look

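A sample far from the others was looked for in each of the 10 genes, among the 9 tumors and among tumors 1 to 6, which is 20 checks. Chance flags about 1 in 20 groups in such a check, and the checks here are not independent, since tumors 1 to 6 are among the 9. There were 5 flags, all for tumor 4 as the highest library. Prf1 was at 3.81 TMM CPM there, apart from the other tumors 1 to 6. Nkg7 was at 2.04 TMM CPM there, apart both among the 9 tumors and among tumors 1 to 6. Ccl5 was at 21.3 TMM CPM there, apart in both sets as well. The counts behind these values were 28, 15 and 156. Tumor 4 also had the lowest TMM factor of all libraries, 0.283, which raises its TMM CPM. On TPM it was likewise the highest of tumors 1 to 6 for Prf1, Nkg7 and Ccl5.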

How the results depend on the processing

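For all 9 tumors against the controls, the count of genes of the set called higher was 0 and became 1 with DESeq2, 1 without tumors 7 to 9, 1 without tumors 7 to 9 and control 1 (chosen after seeing the data) and 2 with the replicate block. The count called lower was 0 and became 8 with limma on log2(TPM + 1), which called 79.3% of all genes lower. Leaving out any 1 library kept both counts at 0, with the Gzma fold change from 5.36 to 6.81 and its edgeR adjusted p from 0.0601 to 0.530. The replicate block joins libraries that share a number, and numbers 4 to 9 occur in tumors only, so by construction it rests on tumors 1 to 3 against the controls. It gave Gzma 7.09 and Ccl5 1.54 (edgeR adjusted p 8.31e-22 and 0.0271), with 20.7% of all genes called higher. Same-numbered libraries did not deviate together, with correlations of their deviations from the group means of 0.065, 0.149 and -0.139 over 23743 genes, so the labels' numbers name samples only. No paired analysis was possible because tumors 7 to 9 and the controls share no number, and the correlations are within tumors. With library composition as a term the Gzma fold change was 0.03 (edgeR adjusted p = 1.0), which by construction rests on tumors 7 to 9 against the controls. Ccl5 turned to -0.61 with library totals and -0.94 with limma.

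For tumors 7 to 9 against the controls both counts stayed at 0. Gzma turned to -0.82 with library totals, -0.0023 with nuclear protein-coding genes only, -0.0053 with no filter and -0.68 with limma, and ran from -0.73 to 1.12 with 1 library left out. Eomes turned to -0.21 with limma. Over tumors 1 to 6 the count of correlated genes stayed at 0 throughout. The r of Tbx21 turned to 0.0394 with nuclear protein-coding genes only and its rho was 0.0857, and with 1 tumor left out it ran from -0.58 to 0.348. The cause of these changes was not tested. Background reads limit tumors 7 to 9 and the controls, and counts of 0 to 28 limit most genes of tumors 1 to 6.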

Other observations

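Trdc, the constant region of the T cell receptor delta chain, split tumors 1 to 6. It had 1062, 413, 5, 7, 2790 and 2080 estimated counts in tumors 1 to 6, against 12, 35 and 145 counts in tumors 7, 8 and 9 and 149, 101 and 103 counts in the controls. Per length this was 6.39, 2.27, 0.0214, 0.0343, 9.93 and 14.0 TPM in tumors 1 to 6. Tumors 3 and 4 lay below all other libraries in TPM and tumors 1, 5 and 6 above all others, while Gzma was present in all 6. Tumor 6, with the most Trdc per length, had the least Gzma of the 6 at 10.2 TPM. Sox13, a transcription factor of γδ thymocytes, had 4.25 TPM in tumor 1, 0.317 to 0.747 TPM in tumors 2 to 5 and 8.17 TPM in tumor 6, against 0.503, 2.01 and 4.23 TPM in tumors 7, 8 and 9 and 6.61, 5.37 and 2.50 TPM in controls 1, 2 and 3. Only tumor 6 lay above all the controls.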
